A study of Mus musculus with 84 samples.

Results

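The clustered protocadherins are cadherin-like adhesion proteins encoded side by side in 3 gene clusters (alpha, beta and gamma) on mouse chromosome 18. The members studied here are the genes of the deposited count table whose symbol is Pcdha, Pcdhb or Pcdhg followed by an isoform label. There were 57 of them among 50686 genes: 14 alpha, 22 beta and 21 gamma, with 1 pseudogene, Pcdhgb8, left out. The study profiled single sensory neurons from the vagal ganglia of C57BL/6 mice, which had taken up the lipophilic tracer DiI (2%) carried back along their axons from the airways. Traced cells were collected singly, and the mRNA of each was amplified into a library of its own. All 84 neurons form 1 group with no treatment, and the labels give neither the age or sex of the mice nor the animal a neuron came from. Neurons are therefore described by counts, shares and ranges, with no p-value.

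Each isoform has its own first exon with its own promoter. In the alpha and gamma clusters that variable exon is spliced to constant exons that all members of the cluster share, so the proteins differ outside the cell and have the same tail inside it. Beta genes are single exons with no shared part. A neuron is known to switch on a small and largely random set of the alternate isoforms, through promoters that are bound by CTCF and cohesin and silenced by DNA methylation. The 5 C-type isoforms (Pcdhac1, Pcdhac2, Pcdhgc3, Pcdhgc4 and Pcdhgc5), which lie at the 3′ ends of the alpha and gamma clusters, follow other rules. The proteins bind identical proteins on the facing membrane, and this lets a neuron tell its own branches from those of other neurons.

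In GENCODE M21 (GRCm38, which need not be the build the authors used) the alpha cluster spans 36930184 to 37187661, the beta cluster 37264938 to 37524479 and the gamma cluster 37661793 to 37841873. The symbol Pcdha11 belongs to 2 Ensembl genes there. The upstream one is called Pcdha11 entry 1 and the downstream one Pcdha11 entry 2. RefSeq's table for the same build lists Pcdha10 at 37005320 to 37187657, within the upstream gene, and Pcdha11 at 37010858 to 37187657, within the downstream one, so entry 1 lies where RefSeq has Pcdha10.

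Values are CPM, each gene's count scaled to a total of 1000000 counts per neuron. Of the 84 neurons, 72 had 5000000 or more total counts, and all results are for these 72 unless stated. Their totals ran from 6732279 to 20668832. An isoform is called on from 10 CPM upwards. That level stands for 67.3 counts in the neuron with the lowest total and 206.7 counts in the one with the highest. The lists of sensory neuron and satellite glia genes differed widely in level between neurons. The 10 sensory neuron genes summed to a median of about 19150 CPM, and Snap25, Stmn2 and Prph were on in 72 of 72 neurons. The 8 satellite glia genes summed to a median of 1379 CPM, with a range from 6.2 to 56800 CPM. In 7 neurons the glial sum exceeded the neuronal sum, and their names are AM002, AM005, AM023, AM078, AM244, AM251 and AM287. The main counts and shares below were recomputed without them.

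How reads of the shared exons were counted decides what an alpha or gamma value means. The sources used here do not give the counting settings, but the values bear on them. In all 72 neurons at least 1 member of each cluster was at 0. In neuron AM075, Pcdha1 had 2789 counts while 12 of the 14 alpha members had 0. In neuron AM267 a gamma member had 444 counts while 19 of the 21 gamma members had 0. Reads of the constant exons were thus not given to every member of a cluster. The annotation also holds 3 long gene models, Gm42416, Gm37013 and Gm37388, that run from the alpha into the gamma cluster, and these had 0 counts in every one of the 72 neurons. An alpha or gamma value is therefore read here as a value of that isoform's own part. The own part is 46.5% of the exon bases for the median alpha member, 55.4% for the median gamma member and 100% for the median beta member. It lies at the 5′ end of an alpha or gamma transcript, while a beta count covers the whole transcript, so levels are not compared across clusters without this limit. Paralogues were separable for most beta members: the median beta gene shared 1.2% of its 76-base words with transcripts of any other gene. Pcdhb12 was the exception at 62.9%, since an antisense gene, Gm37446, covers most of it.

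Of the 57 members 25 were on in at least 1 neuron (43.9%), where 31.7% of all genes of the table were. The members are all protein-coding, while the table also holds pseudogenes and non-coding genes, so these shares differ in base. The 25 were 17 of 22 beta genes, 6 of 14 alpha genes and 2 of 21 gamma genes. A member that was on at all was on in few neurons: the median over these 25 was 3 of 72 neurons (4.17%), against 20 of 72 (27.8%) over all 16068 genes that were on in at least 1 neuron. Some of these rare calls were high. Of the 25, 9 reached 100 CPM or more in a neuron while on in under 25% of neurons (36%), where 12.6% of all genes on in at least 1 neuron did so. The 9 were Pcdha1, Pcdhb4, Pcdhb6, Pcdhb7, Pcdhb9, Pcdhb11, Pcdhb18, Pcdhb20 and Pcdhb22. Without the 7 glia-rich neurons the count was 7, with no matching share over all genes. The shares of 36% and 12.6% also differ in base. All of the 25 but Pcdhac2 were on in under 25% of neurons, while the median gene was on in 27.8%. Many genes thus could not meet the rule, and part of the gap restates how rare the members are.

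**Figure D1:**
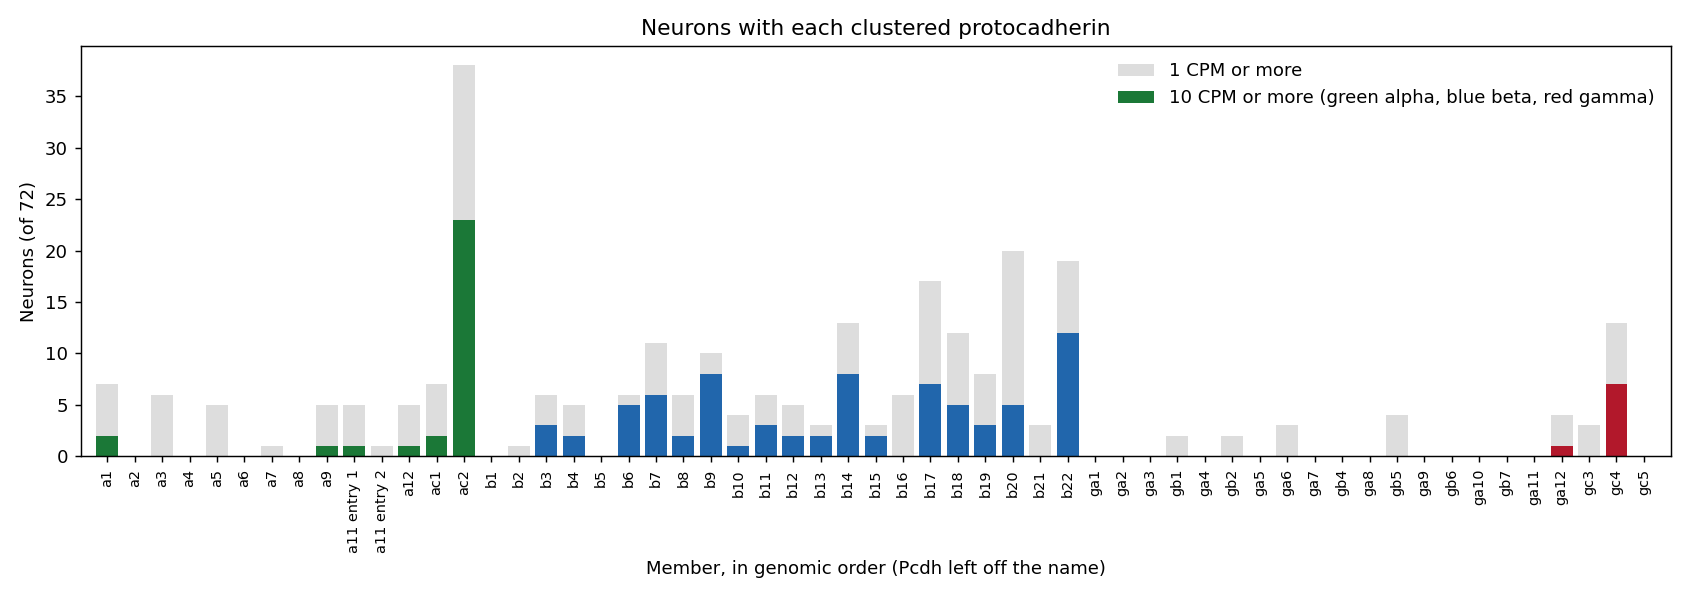
Number of neurons (of 72) in which each of the 57 members reached 10 CPM (coloured bars) or 1 CPM (grey bars), with members in genomic order along the horizontal axis. Pcdhac2 stands above the rest with 23 neurons, beta members follow with up to 12, and most alpha and gamma alternates have no coloured bar.

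The threshold did not fall in a gap between levels. Over all 4104 values (57 members in 72 neurons), 3541 were 0, 390 lay above 0 and under 5 CPM, and 59 from 5 to 10 CPM. Above the threshold, 55 values lay from 10 to 20 CPM and 59 at 20 CPM or more. The value just under the threshold was 9.93 CPM and the one just over it 10.2 CPM. A call of on thus marks a level and not a separate class of values, while most values were 0.

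A C-type isoform reached more neurons than any other member. Pcdhac2, the last alpha isoform and the one known from serotonergic neurons, where it spaces their axons, was on in 23 of 72 neurons (31.9%, exact 95% binomial interval 21.4 to 43.99%). Its level ran from 0 through a median of 2.55 to 127.7 CPM, with 28 neurons at 0. It was a low transcript where it was on, with 14 neurons from 10 to 20 CPM and 9 at 20 CPM or more, and 10 further neurons lay between 5 and 10 CPM. Under TMM scaling, which sets totals by the bulk of genes, it was on in 16.7% of neurons, and among neurons with 5000 or more genes in 47.4%. The highest levels were 127.7 CPM in AM299 and 60.02 CPM in AM282, and both neurons had no other isoform on. Intervals of this kind cover counting error over neurons only.

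Pcdhgc4, the gamma isoform known to be needed for the survival of neurons in the spinal cord, was on in 7 of 72 neurons (9.72%, 3.999 to 19.01%). Its highest levels were 30.4 CPM in AM267, 26.1 CPM in AM249 and 16.2 CPM in AM244. AM244 is one of the glia-rich neurons, and without these Pcdhgc4 was on in 6 neurons. Pcdhac1 was on in 2 neurons, at 19.9 CPM in AM228 and 16.1 CPM in AM234. Pcdhgc3, a broadly expressed isoform that acts on dendrite branching, reached at most 2.44 CPM, and Pcdhgc5, an isoform of the maturing brain, at most 0.788 CPM. Neither was on in any neuron, which allows a share of up to 4.17%. An antisense gene, BC037039, overlaps Pcdhgc3, and reads in the overlap cannot be parted where counting ignores strand. Over the whole family, the C-type isoforms gave 32 of the 114 on calls, and 29 neurons (40.3%, 28.9 to 52.5%) had at least 1.

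Alternate alpha isoforms were rare. Of 12 alternates 4 were ever on, and only 5 of 72 neurons had one (6.94%, 2.29 to 15.5%). Pcdha1, the first gene of the cluster, was on in 2 neurons, at 197.6 CPM in AM075 and 10.2 CPM in AM298. In AM075 it made up 99.7% of the summed protocadherin level. Pcdha9 reached 13.2 CPM in AM291, Pcdha11 entry 1 (Pcdha10 in RefSeq) reached 14.8 CPM in AM303, and Pcdha12 reached 17.4 CPM in AM304. No neuron had more than 1 alternate alpha isoform on. The antisense gene Gm10545 overlaps Pcdha12, and counting without strand could not part their reads.

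The other 8 alternates, Pcdha2 to Pcdha8 and Pcdha11 entry 2, were on in no neuron. Pcdha3 came closest at 7.70 CPM and Pcdha5 next at 6.64 CPM, and Pcdha6 had no count in any of the 72 neurons. The own part of Pcdha4 is 494 bases, 8.6% of its exons, since Gm42416 covers most of its variable exon, so its low value says little about the isoform. Pcdha11 entry 2 has 4606 own bases, but 1268 once genes on the opposite strand, Gm10544 and Gm10545 among them, are counted. Gm10544 had counts in 17 neurons. If counting ignored strand, the low value of entry 2 says little either.

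Beta isoforms gave most of the on calls, 76 of 114 (66.7%), and 40 of 72 neurons had at least 1 (55.6%, 43.4 to 67.3%). The cut of 10 CPM does not treat the clusters alike. A beta count covers a whole transcript, with a median of 3714 own bases. An alpha or gamma count covers a 5′ part, with medians of 2479.5 and 2637 own bases. The share of calls is therefore no measure of how much each cluster is used. Of these 40 neurons, 15 had 1 beta isoform on, 17 had 2, 5 had 3 and 3 had 4. Calls were spread along the cluster, with 30 among Pcdhb1 to Pcdhb11 and 46 among Pcdhb12 to Pcdhb22. No beta member was on in more than 12 neurons.

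The most frequent was Pcdhb22, the last gene of the cluster, in 12 neurons (16.7%, 8.92 to 27.3%). Its level had a median of 30.4 CPM in these 12 and its highest values were 158.0 CPM in AM253, 104.6 CPM in AM249 and 91.1 CPM in AM234. It was followed by Pcdhb9 and Pcdhb14 in 8 neurons each (11.1%, 4.92 to 20.7%) and Pcdhb17 in 7 neurons (9.72%). Pcdhb9 was at a median of 58.1 CPM where on, with 121.2 CPM in AM246 and 95.9 CPM in AM065 at the top. Pcdhb14 was lower, at a median of 20.96 CPM, with 84.4 CPM in AM006 at the top. Pcdhb17 had a median of 37.1 CPM where on and 63.7 CPM in AM223 at the top. The order of these 4 was not tested and is not firm. The last 455 bases of Pcdhb21 lie within Pcdhb22, and reads there cannot be parted.

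The highest levels of any member were in 1 neuron. In AM244, Pcdhb6 had 688.3 CPM and its neighbour Pcdhb7 had 682.4 CPM. The next neurons had 46.9 CPM of Pcdhb6 (AM017) and 68.7 CPM of Pcdhb7 (AM065). AM244 also stood apart in its markers: its sensory neuron genes summed to 491.9 CPM, the lowest of the 72, and its satellite glia genes to about 36740 CPM, the second highest. Whether these reads came from a neuron was not tested. Pcdhb6 and Pcdhb7 shared 3.5% and 2.4% of their 76-base words with other genes.

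Beta members were compared with each other per length, as the mean CPM over neurons for each 1000 own bases. Over the 65 neurons without the glia-rich ones, Pcdhb9 had the highest beta value (2.15 CPM per 1000 bases), followed by Pcdhb20 (1.96) and Pcdhb22 (1.58). With all 72 neurons Pcdhb7 stood first among beta members at 3.35 and Pcdhb6 had 2.97, and without the glia-rich neurons Pcdhb7 had 0.709, so AM244 set both of those levels. Pcdhb20 owed its place to few neurons. It was on in 5 neurons (6.94%), at 141.4 CPM in AM234, 126.7 CPM in AM249 and 89.7 CPM in AM018 at the top, and 20 neurons had 1 CPM or more.

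The beta members on in fewest neurons were Pcdhb10, on in AM283 alone at 39.2 CPM, and 5 that were on in none. Of these 5, Pcdhb16 came closest at 9.62 CPM and Pcdhb21 next at 8.003 CPM, and Pcdhb2 reached 2.60 CPM. Pcdhb5 reached 0.157 CPM, and Pcdhb1, the beta gene whose promoter is known to lack the sequence element of its neighbours, had no count. Each of these zeros allows a share of up to 4.17% of neurons.

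Gamma alternates were almost absent from the own parts counted. Of 12 gamma A genes only Pcdhga12 was on, in AM253 at 13.2 CPM. Of 6 gamma B genes none was on, and Pcdhgb5 came closest at 7.46 CPM, with Pcdhgb1 next at 6.26 CPM. Pcdhga4 and Pcdhga10 had no count in any neuron. Pcdhga4 has 1570 own bases, 33.2% of its exons and the lowest share in the gamma cluster, so its lack of counts says less. The antisense gene Gm26672 covers every own base of Pcdhga10, so nothing can be said of that isoform if counting ignored strand. Gm26672 also overlaps Pcdhga11, Pcdhgb7 and Pcdhga12. With the opposite strand counted, their own bases fall from 2637 to 1256, from 2594 to 1823 and from 4545 to 4123. Of the 12 gamma A genes 2 reached 1 CPM in any neuron, and of the 6 gamma B genes 3 did. Over the gamma cluster, 8 of 72 neurons had a member on (11.1%, 4.92 to 20.7%), and in 7 of these 8 it was Pcdhgc4.

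**Figure D2:**
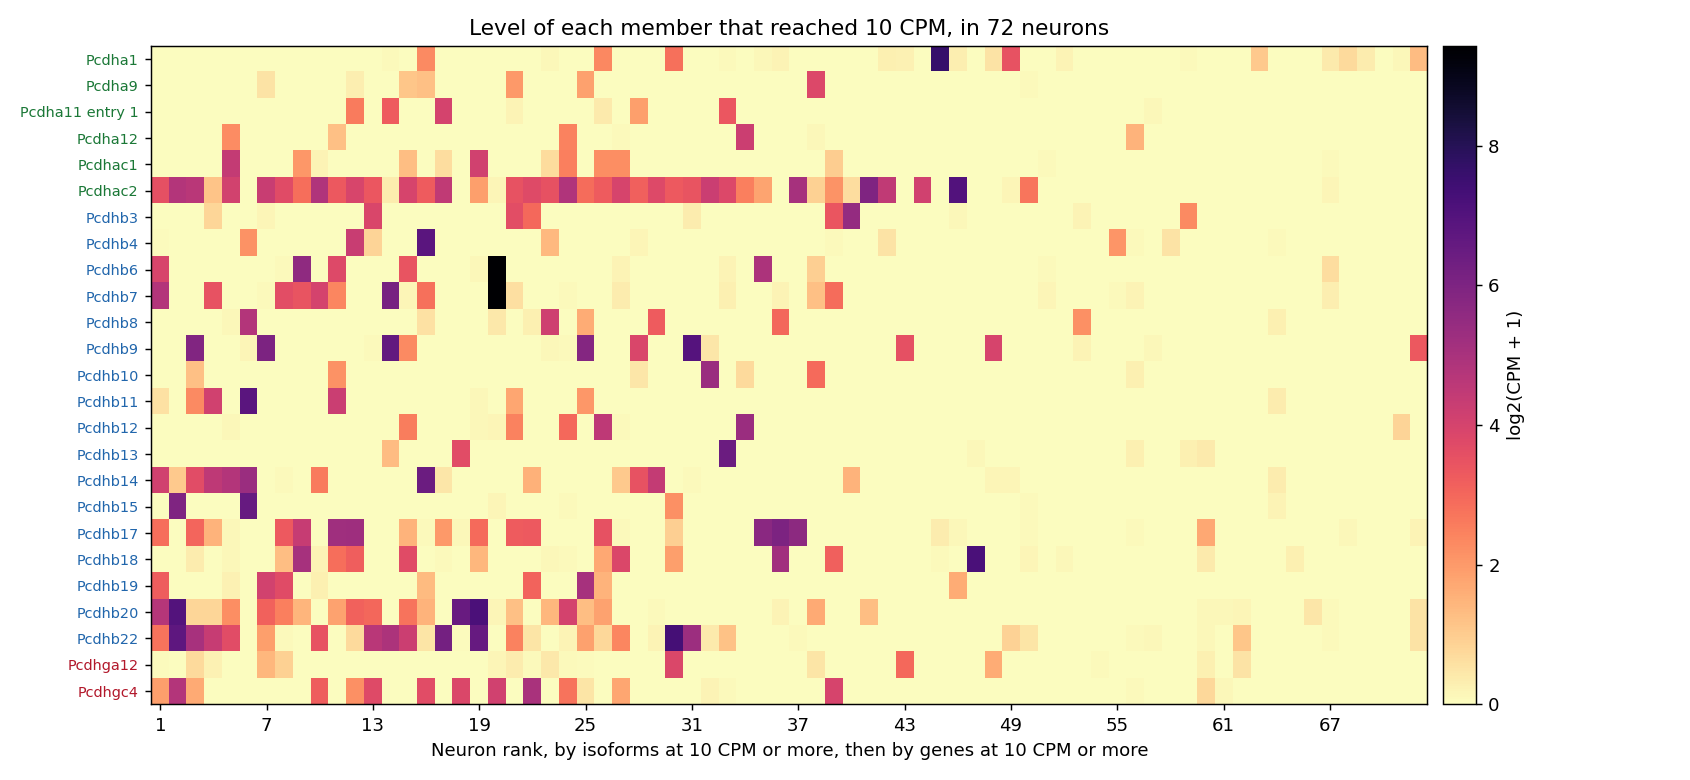
Level of the 25 members that reached 10 CPM in a neuron (rows, in genomic order, alpha names in green, beta in blue, gamma in red) in each of 72 neurons (columns, those with most isoforms on at the left), as log2(CPM + 1). Pcdhac2 runs as a band through the neurons at the left, the beta rows are scattered single cells of colour, and the pair of black cells is Pcdhb6 and Pcdhb7 in AM244.

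The number of isoforms on per neuron was small. Of the 72 neurons, 23 had none on (31.9%, 21.4 to 43.99%), 12 had 1, 17 had 2, 14 had 3, 4 had 4 and 2 had 5. The median was 2, with quartiles of 0 and 3. At 1 CPM the median was 3 and at 1 count or more it was 7.5, so the number depends on the threshold. The median was 1 under TMM scaling, with all 84 neurons and without block 1 of the neuron names (described below). Of the 49 neurons with any isoform on, 19 combined alpha with beta, 15 had beta alone and 7 had alpha alone. Beta with gamma was found in 5 neurons, and each of the rest (gamma alone, alpha with gamma, all 3 clusters) in 1. TMM scaling lowered the share of neurons with an alpha isoform from 38.9 to 25%, with a gamma isoform from 11.1 to 4.17% and with a C-type isoform from 40.3 to 22.2%.

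Combinations rarely recurred. All 37 neurons with 2 or more isoforms on had 37 different combinations, and under TMM scaling 20 such neurons had 20. At 1 count 67 such neurons had 67. The members that were on were on in a median of 3 of 72 neurons. Sets of equally rare other genes were not compared, so these counts are not read as a trait of protocadherins. When only alternate isoforms were counted, 28 neurons had 2 or more and held 27 combinations, with Pcdhb9 and Pcdhb19 together in AM021 and AM059. At 1 CPM, 46 neurons with 2 or more isoforms held 45 combinations. Among neurons with a single isoform on, Pcdhac2 recurred in 4 (AM086, AM248, AM282 and AM299), Pcdha1 in 2 and Pcdhb9 in 2.

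Neurons were also compared in pairs. Of the 666 pairs among the 37 neurons, 349 shared no isoform (52.4%), 265 shared 1 and 52 shared 2 or more. The most that any pair shared was 3, which AM022 and AM228 did with Pcdhac2, Pcdhb14 and Pcdhb22. When only alternates counted, 62.7% of 378 pairs shared none and 19 pairs shared 2. These figures describe the 72 neurons at this depth. With sets this small an isoform missed in a neuron changes its combination.

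The neurons with most isoforms show what a combination looks like. AM069 had 5 on: Pcdhac2 at 10.8 CPM, Pcdhb6 at 14.2, Pcdhb7 at 26.02, Pcdhb14 at 16.05 and Pcdhb20 at 25.5 CPM. AM249 also had 5 on, from all 3 clusters: Pcdhac2 at 26.3 CPM, Pcdhb15 at 61.2, Pcdhb20 at 126.7, Pcdhb22 at 104.6 and Pcdhgc4 at 26.1 CPM. They shared Pcdhac2 and Pcdhb20.

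Those with 4 on differed from these and from each other. AM003 had beta isoforms only, Pcdhb8 at 26.4 CPM, Pcdhb11 at 114.1, Pcdhb14 at 39.3 and Pcdhb15 at 91.0 CPM. AM296 had Pcdhb7 at 10.2 CPM, Pcdhb11 at 16.4, Pcdhb14 at 21.7 and Pcdhb22 at 19.3 CPM. AM022 had Pcdhac2 at 23.5 CPM, Pcdhb9 at 59.7, Pcdhb14 at 11.7 and Pcdhb22 at 31.9 CPM. AM228 had both alpha C-type isoforms, Pcdhac1 at 19.9 and Pcdhac2 at 15.6 CPM, with Pcdhb14 at 26.1 and Pcdhb22 at 11.6 CPM. Pcdhb14 was on in all 4 of these neurons.

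In the 49 neurons with any isoform on, the strongest held a median of 50.5% of the summed level of all members, and over 50% in 25 neurons. In the 37 neurons with 2 or more on, the strongest isoform had a median of 1.73 times the level of the next (quartiles 1.31 and 2.07), and in 3 neurons it was over 5 times. The choice of neurons with a second isoform at 10 CPM or more limits this ratio. In these 37 the strongest isoform held a median of 40.2% of the summed level. Of the 12 neurons with 1 isoform on, 8 had over 90% of the summed level in it. Pcdhb18 held 99.9% of the summed level in AM225, at 146.4 CPM, and Pcdhac2 held 97.9% in AM299. In AM221 the only isoform on, Pcdhgc4 at 14.5 CPM, was beside others under 10 CPM, and the strongest member held 26.7%. These sums mix clusters, although a beta count covers a whole transcript and an alpha or gamma count a 5′ part. Within the beta cluster, 40 neurons had an isoform on. The strongest held a median of 59.4% of the summed beta level there, and over 50% in 27 neurons. In the 25 neurons with 2 or more beta isoforms on, the median ratio of strongest to next was 1.55.

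**Figure D3:**
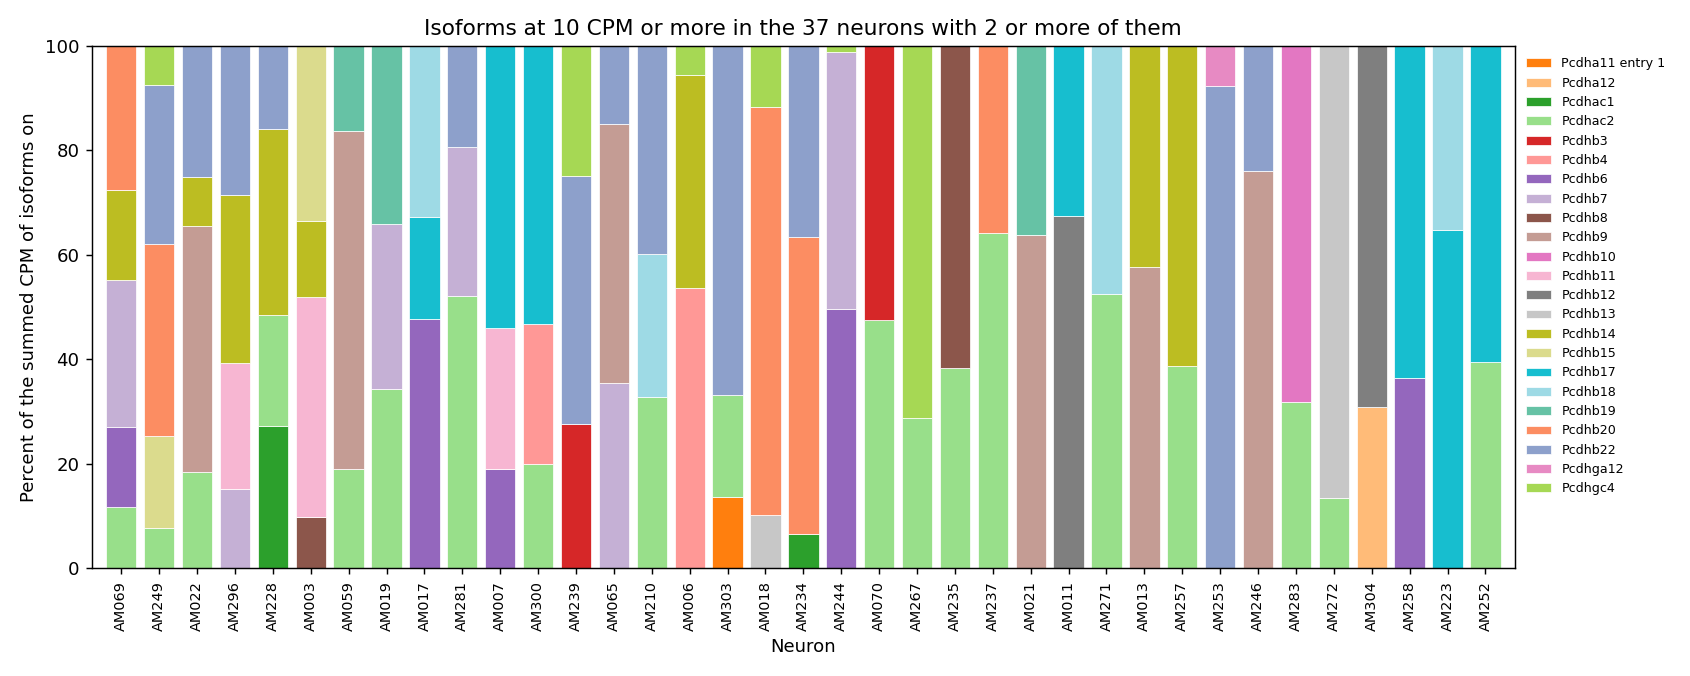
Share of the summed CPM of isoforms on (vertical axis, percent) taken by each isoform in the 37 neurons with 2 or more on (horizontal axis, those with most isoforms at the left), with 1 colour per isoform. No pair of columns has the same set of colours, and in most columns no isoform takes nearly all of the bar. Levels are not scaled for length, and beta counts cover a whole transcript while alpha and gamma counts cover a 5′ part.

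Isoforms on in 5 or more neurons (10 of the 57) were set against each other with the phi coefficient, a correlation of on and off calls across the 72 neurons. The median phi was 0.065 for 28 pairs within a cluster and 0.047 for 17 pairs from different clusters. All of the 28 were pairs of beta isoforms, and each of the 17 held Pcdhac2 or Pcdhgc4. Within against between clusters thus cannot be told apart from beta against C-type isoforms. The highest phi was 0.46 for Pcdhb6 and Pcdhb17, which were together in 3 neurons (AM007, AM017 and AM258) of the 5 and 7 that had them. The neighbours Pcdhb6 and Pcdhb7 had 0.31 and Pcdhb17 and Pcdhb18 had 0.28, with 2 shared neurons each. One neuron shared by the first pair is AM244, and without the glia-rich neurons its phi was 0.17, from 1 shared neuron (AM069). Among the 28 pairs within a cluster 12 were never on together, against 3 of the 17 pairs from different clusters. In the 38 neurons with 5000 or more genes these counts were 1 of 10 and 2 of 11. With isoforms on in so few neurons, pairs that never met are not read as exclusion. The counts behind each value are small, and neurons also differ in genes detected, as given next, so these values are descriptions.

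How many isoforms a neuron showed went with how many genes it showed. Across the 72 neurons the number of isoforms on had a Spearman rho of 0.76 with the number of genes at 10 CPM and of 0.32 with the total count. The 23 neurons with no isoform on had a median of 3033 genes, the 29 with 1 or 2 on had 5885, and the 20 with 3 or more had about 7996. Total counts differed less, with medians of about 11680000, 13630000 and 14460000. The summed satellite glia level went the other way, with a rho of -0.32 with the number of isoforms on. Its medians in the same 3 sets were 1908, 563.0 and 801.5 CPM, which do not fall steadily. The ranges were 21.6 to 56800, 6.2 to 12850 and 7.39 to 36740 CPM.

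The 38 neurons with 5000 or more genes were therefore taken by themselves. Of these, 35 had an isoform on (92.1%, 78.6 to 98.3%), with a median of 2.5, and 32 had a beta isoform. Their 32 neurons with 2 or more on had 32 combinations. Among the 34 neurons with fewer genes 14 had an isoform on (41.2%, 24.6 to 59.3%), with a median of 0. Within the 38 neurons the rho with genes was 0.34. In this group 3 neurons, AM020, AM273 and AM219, showed no isoform in spite of 7006, 6285 and 5231 genes. Whether a missing isoform was silent or lost in amplification cannot be told apart here.

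Pcdhac2 and beta calls were often in the same neurons. A beta isoform was on in 18 of the 23 neurons with Pcdhac2 (78.3%) and in 22 of the 49 without it (44.9%). Among neurons with 5000 or more genes these shares were 17 of 18 (94.4%) and 15 of 20 (75%), a smaller gap. For Pcdhgc4 they were 5 of 7 with it and 35 of 65 without it, and 4 of 6 against 28 of 32 among the neurons with 5000 or more genes.

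**Figure D4:**
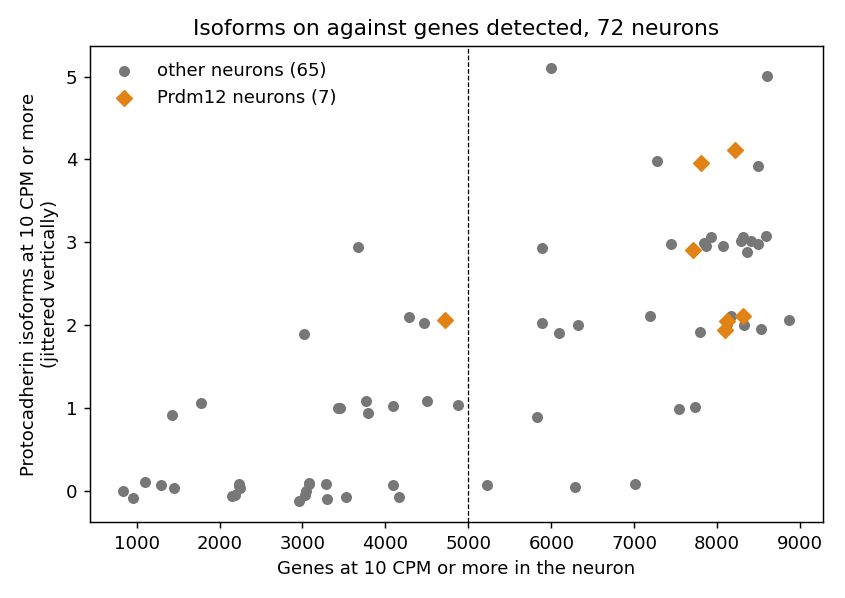
Number of isoforms at 10 CPM or more (vertical axis, jittered) against the number of genes at 10 CPM or more (horizontal axis) for 72 neurons, with the 7 Prdm12 neurons as orange diamonds and a dashed line at 5000 genes. Neurons without an isoform lie mostly left of the line, and the neurons with 4 or 5 isoforms all lie right of it.

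Neurons of the jugular type, which arise from the neural crest, were taken as those with Prdm12 at 10 CPM or more. The lowest of these had 22.04 CPM of Prdm12, and the highest neuron outside, AM086, had 9.13 CPM. All 7 Prdm12 neurons had an isoform on (100%, 59.04 to 100%), against 42 of 65 others (64.6%, 51.8 to 76.1%) and 29 of the 32 others with 5000 or more genes (90.6%, 74.98 to 98.02%). Their median was 2 isoforms with a range from 2 to 4, against 1 (0 to 5) in all others and 2.5 (0 to 5) in the others with 5000 or more genes. Genes detected differed in the same direction, with medians of 8091, 4870 and about 7852. The summed satellite glia level had medians of 175.8, 1416 and 801.5 CPM.

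The number of neurons a member was on in limits the gap it can show. Of the 25 members, 13 were on in enough neurons to be 40 percentage points higher in the Prdm12 neurons, and none in enough to be 40 points lower. None of the 13 was higher by that much. Of all genes on in at least 1 neuron 13.3% were higher by 40 points and 0.361% lower, shares that members this rare cannot be read against. The largest gap was 35.2 points, for Pcdhb14, on in 3 of 7 Prdm12 neurons and 5 of 65 others. Among the 32 others with 5000 or more genes Pcdhb14 was also on in 5. Pcdhb12 was on in 2 of 7 and 0 of 65, and the reads of Pcdhb12 cannot be parted from those of its antisense gene where counting ignores strand. Pcdhgc4 was on in 0 of 7 and 7 of 65, a gap of -10.8 points. At 1 CPM Pcdhac2 passed 40 points, with 52.3 points more in the Prdm12 neurons than in all others, which showed fewer genes. The gap at 1 CPM was not computed against the others with 5000 or more genes. At 10 CPM Pcdhac2 was on in 3 of 7 Prdm12 neurons, 20 of 65 others and 15 of the 32 others with 5000 or more genes.

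The 7 Prdm12 neurons did not share a set. AM303 had Pcdha11 entry 1, Pcdhac2 and Pcdhb22, AM304 had Pcdha12 and Pcdhb12, and AM011 had Pcdhb12 and Pcdhb17. AM013 had Pcdhb9 and Pcdhb14, and AM237 had Pcdhac2 and Pcdhb20. AM296 and AM228, described above, had 4 each and shared Pcdhb14 and Pcdhb22. Of the 5 alternate alpha calls over all neurons, 2 (Pcdha11 entry 1 and Pcdha12) were in Prdm12 neurons.

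The numbers in the neurons' names fall into 3 blocks, with jumps of over 30 between them, and the labels do not call these batches. An isoform was on in 10 of 16 neurons of block 1 (62.5%), 6 of 11 of block 2 (54.5%) and 33 of 45 of block 3 (73.3%). Pcdhac2 was on in 2 of 16, 4 of 11 and 17 of 45. Block 1 had a median of 7640 genes, block 2 of 3793 and block 3 of 5231. Whether the blocks differ in preparation was not tested.

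Genes tied to these proteins were described in 3 lists, beside the median of 20 of 72 neurons over all genes on in at least 1 neuron. Of all genes of the table, 31.7% were on in at least 1 neuron. The non-clustered protocadherins, which lie elsewhere in the genome and have promoters of their own, were all 10 on in some neuron, with a median of 23.5 of 72 neurons, from Pcdh8 in 2 to Pcdh17 in 46. They were led by Pcdh17 (63.9% of neurons), Pcdh9 in 40 (55.6%), Pcdh7 in 35 (48.6%) and Pcdh10 in 28 (38.9%). Single neurons reached 1791 CPM of Pcdh9 and 1366 CPM of Pcdh7. Of the 20 chromatin regulators of promoter choice 19 were on in some neuron and 7 in at least 36 neurons, with a median of 32. They were led by the cohesin genes Smc1a (57 neurons), Smc3 (49) and Rad21 (48) and the cohesin regulator Pds5b (49). Ctcf was on in 33 neurons (45.8%), Dnmt3a in 18 and Smchd1, a silencer of the clusters, in 25. Dnmt3b, the methyltransferase known to set the pattern in the embryo, was on in none and reached 1.12 CPM.

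All 12 partner and signalling genes were on in some neuron and 10 in at least 36, with a median of 51. They were led by Cyfip2 (66 neurons, 91.7%), a subunit of the actin-regulating WAVE complex, and by Nckap1 of the same complex, the receptor tyrosine kinase Ret and the membrane substrate Marcks, with 62 neurons each. Ptk2b, a kinase that the constant tail of the alpha and gamma proteins binds, was on in 7 neurons (9.72%), and the related Ptk2 in 39. Axin1, a partner of the Pcdhgc3 protein, was on in 4.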

How the data were processed

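The authors deposited raw read counts for 50686 Ensembl genes in 84 neurons, made with featureCounts per the submitters' processing notes. Not given in the sources used here are its version, its strand and overlap settings, the aligner and the build. The labels speak of no molecular identifiers, so copies made by amplification are counted.

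Of the identifiers 50376 matched GENCODE M21, and the 310 unmatched held at most 0.253% of a neuron's counts. Neurons with 5000000 or more counts (72, with 12 left out) were used. CPM came from each neuron's total, and on means 10 CPM. Own bases are exon bases that no other gene covers on the same strand. Shares, those of 0 included, have exact Clopper-Pearson 95% intervals. The on calls were tried on simulated counts whose levels lay away from 10 CPM and held no amplification noise. That trial checked the code and says nothing about real values near the threshold. No test between neurons was run, since no animal is named. The members, lists and rules were chosen with earlier results of these data known, and leaving out glia-rich neurons was chosen after seeing the data. Named were all C-type members, the leading and the rarest members of each family, and in each other list the 4 genes on in most neurons, with whole lists of up to 12 allowed; other members (such as Pcdhb18 and Pcdhb20), the example neurons, Ctcf, Dnmt3a and Smchd1 were added after their values were seen. Alternatives covered the threshold, the neuron filter, thinning, TMM scaling (edgeR 4.0.16) and leaving out identifier blocks. Python 3.11.15, numpy 2.4.6, pandas 2.3.3, scipy 1.17.1 and R 4.3.3 were used with seed 1.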

Additional observations from a re-analysis of the deposited data

Results flagged for a closer look

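The 12 neurons with under 5000000 counts, which no result above uses, also held protocadherin transcripts: 5 of the 12 had an isoform on. Pcdha1 was on in 3 of them, AM290, AM292 and AM301, with at most 108.8 CPM of any member in AM290, 10.4 CPM in AM292 and 64.3 CPM in AM301. AM290 also had Pcdhb22 on. AM224 had Pcdha5 and Pcdhga1 on, with a highest level of 111.2 CPM (405 counts), and neither isoform was on in any of the 72 neurons. AM232 had Pcdhb12 at 3107 CPM (3395 counts of a total of 1092867), above every level in the 72 neurons. A count of 3 in these neurons would be at most 5.2 CPM.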

How the results depend on the processing

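The threshold moved most values. At 1 count, 53 members were on, with a median of 7.5 per neuron. An isoform was then on in 98.6% of neurons, alpha in 83.3%, beta in 93.1%, gamma in 68.1% and C-type in 72.2%, with 67 combinations in 67 neurons and 4 sparse-high members (rare members that reach 100 CPM). At 1 CPM these shares were 80.6%, 62.5%, 70.8%, 33.3% and 56.9%, and 1 member passed 40 points in the Prdm12 comparison. At 50 CPM, 14 members were on, the median was 0, the shares were 27.8%, 4.17%, 23.6%, 0% and 2.78%, and 6 neurons held 6 combinations. In neurons with 5000 or more genes the shares were 92.1% for any isoform, 52.6% for alpha, 84.2% for beta and 60.5% for C-type, with 4 sparse-high members. TMM scaling gave 25% for alpha, 4.17% for gamma, 22.2% for C-type and 20 combinations in 20 neurons. Without identifier block 3, alpha was at 25.9%, with 14 combinations and 3 sparse-high members, from 27 neurons. The cause was not tested, beyond fewer neurons in the last case. Of 112 recomputed values 77 stayed within their interval (shares), within 1.5 times (counts) or within 1 SD over neurons, 1.40 (median isoforms), among them every one with all 84 neurons, with at least 10000000 counts, after thinning, without block 1, without block 2 and without the 7 glia-rich neurons. By that rule a median of 1 in place of 2, as found with all 84 neurons, without block 1 and under TMM scaling, counts as no move. No paired analysis was possible because the labels give 1 group. At 10 CPM a call rests on at least 67.3 counts, and the intervals over 72 neurons limit the shares.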

Other observations

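Several genes inside the clusters are not members. Of the antisense genes annotated in the alpha cluster, Gm37751, Gm38225 and Gm37753 had no count in the 72 neurons, and Gm10545 had a count in 2 neurons, at most 3.06 CPM. Gm10544, on the opposite strand in the alpha cluster, was on in 1 neuron at 101.9 CPM. Gm37446, antisense to Pcdhb12, was on in 1 neuron at 38.8 CPM. In the same stretch of the chromosome, Taf7, a general transcription factor subunit, was on in 14 of 72 neurons and the pseudogene Gm8242 in 28, both in more neurons than any beta member. The pseudogene Pcdhgb8 had counts in 2 neurons and at most 2.04 CPM.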
